A study of Mus musculus with 96 samples.

Results

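The injury response of the hippocampus of vehicle-treated mice was followed from 3 to 29 days post-injury (dpi). It was read from 16 RNA-seq libraries, the hippocampal vehicle libraries of both time points, out of 96 in the series. The libraries fell into 4 groups of 4: Sham + VH and TBI + VH at 3 dpi, and the same pair at 29 dpi. All animals were male C57BL/6 mice, 8 to 10 weeks old at the start. TBI was a controlled cortical impact (CCI), a piston strike on the exposed dura through a 3 mm craniectomy, while Sham mice had anesthesia and a scalp incision without opening the skull, so craniectomy and impact cannot be told apart. VH is the carrier of candesartan, saline with sodium carbonate, and no mouse in these groups received the drug itself. In the 3 dpi cohort it was injected into the peritoneum at 6, 24 and 48 h. In the 29 dpi cohort it was injected at 6 h and then given by an osmotic pump implanted at 24 h. Cohort, age at collection and route of vehicle therefore changed together with the time point, but each was shared by the Sham + VH and TBI + VH mice of that time point. The ipsilateral hippocampus was taken after saline perfusion, and the 4 RNA samples of highest quality in each group were sequenced.

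The question was which parts of the early response are gone, which remain and which appear only later. A focal impact on the cortex is known to set off reactive gliosis in the hippocampus below it: microglia divide, take up debris and switch from a surveying to a phagocytic program, and astrocytes enlarge and fill with intermediate filaments. Complement proteins made by both cell types tag synapses and debris for removal. Some of these programs are transient, while others are known to last for months in injured brain.

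For each gene, expression was given as CPM, counts scaled to a common size of the normalised library, and the response at a time was the log2 fold change of TBI + VH against Sham + VH of the same time. The difference between the responses was the 29 dpi log2 fold change minus that at 3 dpi, tested as its own contrast (edgeR quasi-likelihood F test, Benjamini-Hochberg FDR). A gene was called at an FDR under 0.05 with an absolute value above 0.32 on the log2 scale. Genes called at 3 dpi and not at 29 dpi, whose difference was also called in the opposite direction, are named resolved here. Genes called at both times in the same direction are named persisted, and genes called at 29 dpi with a called difference and no call at 3 dpi emerged. A gene called at 1 time whose difference was not called is named undecided, because the 2 responses then could not be separated.

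Library totals ran from 19683802 to 27452743 counts at 3 dpi and from 8159341 to 38589791 at 29 dpi. The 8 hippocampal identity genes summed to between 686.4 and 911.2 CPM in all 16 libraries and 0 of them were called in any contrast; with choroid plexus content as a covariate 1 was lower at 3 dpi. Fibcd1, Neurod6 and Neurod2, the members with the largest summed CPM, had log2 fold changes of 0.01, -0.16 and -0.08 at 3 dpi and 0.02, -0.06 and 0.22 at 29 dpi. Marker genes of neighbouring thalamus and neocortex were present at lower sums, 44.67 to 183.7 CPM and 127.3 to 201.9 CPM, also with 0 calls. The thalamus sum was highest in Sham + VH replicate 2 at 29 dpi, against at most 106.4 CPM elsewhere, and the neocortex sum in Sham + VH replicate 3 at 29 dpi, against at most 150.6 CPM elsewhere. Libraries also stood apart in choroid plexus content and in the size of the response. Of the 4 Sham + VH libraries at 3 dpi, 3 carried much choroid plexus RNA, with 6893, 4521, 229.4 and 4855 summed CPM over 20 genes in replicates 1 to 4, against 41.43 to 188.3 CPM in TBI + VH. At 29 dpi the sums were 7756, 238.9, 101 and 4455 CPM in Sham + VH and 146.3, 2427, 73.78 and 416.6 CPM in TBI + VH. In addition, replicate 2 of TBI + VH at 3 dpi responded less than the other 3 injured libraries of its group. The main counts, and several of the counts and calls that changed, are also given without that library or with choroid plexus content as a covariate.

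**Figure D1:**
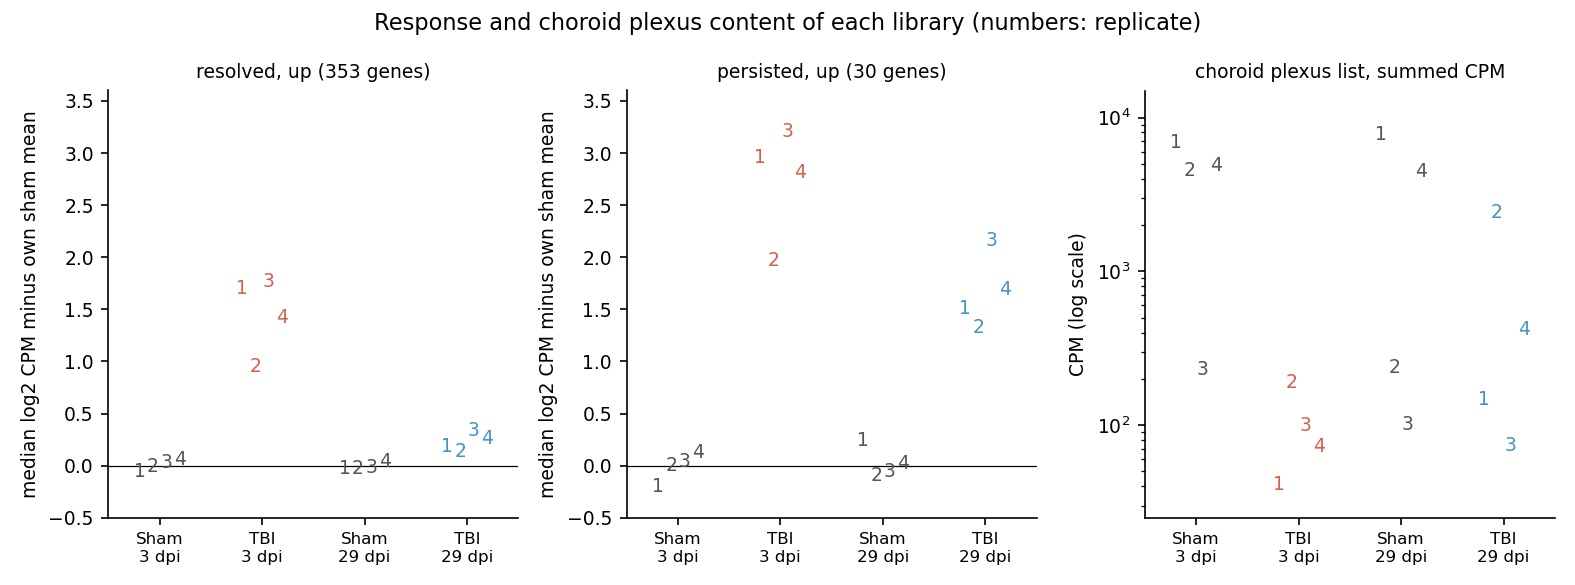
Each number is a library, placed by group and labelled with its replicate. The left and middle panels give the median, over the resolved and over the persisted genes that were higher after injury, of the log2 CPM of a library minus the mean of its own Sham + VH group, and the right panel gives the summed CPM of the choroid plexus list on a log axis. At 3 dpi the TBI + VH values were 1.70, 0.95, 1.77 and 1.42 for resolved and 2.96, 1.97, 3.20 and 2.81 for persisted genes, with replicate 2 lowest in both; at 29 dpi they were 0.18, 0.14, 0.34 and 0.26, and 1.51, 1.33, 2.16 and 1.69.

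Of 16758 genes tested, 1391 (8.3%) were higher and 157 (0.937%) lower in TBI + VH at 3 dpi. At 29 dpi 32 genes (0.191%) were higher and 0 (0%) lower. At an unadjusted p under 0.05 there were 1178 genes at 29 dpi in both directions, and DESeq2 called 94 there. The difference between the responses was called for 370 genes, of which 368 (2.2%) had a lower and 2 (0.0119%) a higher response at 29 dpi. Sorted by these calls, 354 genes resolved, 30 persisted, 0 emerged, 0 reversed direction and 1166 were undecided. The median standard error was 0.107 at 3 dpi, 0.110 at 29 dpi and 0.153 for the difference, so a difference of a given size was harder to call than a response of that size. Without replicate 2 of TBI + VH at 3 dpi, the counts were 1683, 80 and 656 for 3 dpi, 29 dpi and the difference, with 581 resolved and 76 persisted genes.

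Part of the early response was still visible at 29 dpi. Of the 1391 genes higher at 3 dpi, 1193 still had a positive log2 fold change at 29 dpi, against 7973 of all 16758 genes. Their median was 0.21 at 29 dpi, beside 0.97 at 3 dpi, where a high value had selected them. In 281 of them (20.2%) all 4 TBI + VH libraries at 29 dpi lay above all 4 Sham + VH libraries, against 2.55% of all genes tested. Even among the resolved genes that had been higher, 276 of 353 had a positive value and 94 had non-overlapping groups at 29 dpi, with a median log2 fold change of 0.21 against 1.53 at 3 dpi. Resolved therefore means a called decline to a response that was not called, not a return to the sham level.

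**Figure D2:**
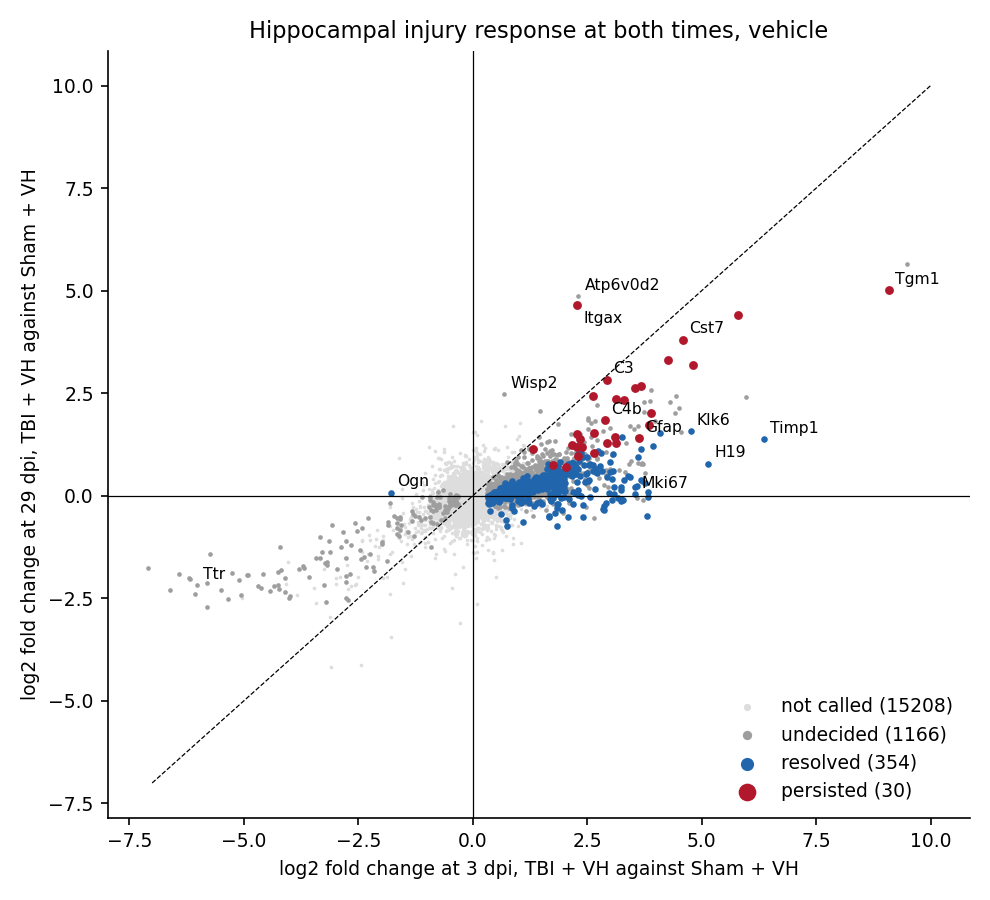
Each point is 1 of 16758 genes, with the log2 fold change of TBI + VH against Sham + VH at 3 dpi on the horizontal and at 29 dpi on the vertical axis, coloured by class; the dashed line marks equal responses. Most genes higher at 3 dpi lie between the horizontal axis and the dashed line, and Itgax, Atp6v0d2 and Wisp2 lie above it.

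Cell division genes were higher at 3 dpi and not called at 29 dpi. Of 24 cell cycle genes, 23 were higher at 3 dpi, 0 were called at 29 dpi and 12 resolved, and the list median went from 2.13 to 0.07, beside -0.01 for all genes tested at both times. Mki67, the nuclear antigen of dividing cells, was at 1.28, 1.58, 1.76 and 2.05 CPM in Sham + VH and 24.8, 5.8, 29.8 and 17.5 CPM in TBI + VH at 3 dpi. At 29 dpi it was at 2.5, 2.40, 2.78 and 2.63 CPM in Sham + VH and 2.52, 1.58, 4.26 and 2.36 CPM in TBI + VH. The groups were fully apart at 3 dpi and overlapped at 29 dpi. Its log2 fold change was 3.54 ± 0.38 (SE) at 3 dpi and 0.04 ± 0.40 at 29 dpi, with a log2 difference of -3.50 ± 0.55 (FDR 0.00287, edgeR). Top2a, which untangles DNA before division, went from 3.54 to 0.21, and Cdk1, the kinase that starts mitosis, from 3.23 to -0.07. Pbk, a mitotic kinase, was at 10.7, 1.63, 10.3 and 5.46 CPM in TBI + VH at 3 dpi and 0.505, 0.351, 1.08 and 0.443 CPM at 29 dpi, while all Sham + VH libraries lay between 0.252 and 0.657 CPM. Its log2 difference of -3.45 ± 0.77 (FDR 0.0252) was not called when any of 9 of the 16 libraries was left out, at FDRs up to 0.1, nor with choroid plexus content as a covariate (FDR 0.0925). The 3 members with the largest summed CPM all serve DNA replication: Pcna had 0.36 and 0.09, Mcm2 0.76 and 0.17 and Mcm6 0.17 and 0.02. Rrm2 and Tyms, which make its building blocks, resolved, with log2 differences of -2.62 and -1.27. Without replicate 2 of TBI + VH at 3 dpi, 19 of the 24 differences were called.

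The promoters of 4 resolved cell cycle genes are shown as examples with 3 or 4 marked motifs each, chosen after the motifs were seen; the same stretch held 2 for Kif11, 1 each for Mki67 and Rrm2, and 0 for Birc5 and Tyms, which resolved too. Each is the 100 bases before the start that RefSeq gives, on build GRCm38.p6 and on the minus strand, written 5′ to 3′. Capitals mark CCAAT, the box bound by the NF-Y factor, and TTTGAA, the core of the cell cycle homology region, on either strand (ATTGG and TTCAAA in reverse).
Cdk1, chr10:69352913-69353012: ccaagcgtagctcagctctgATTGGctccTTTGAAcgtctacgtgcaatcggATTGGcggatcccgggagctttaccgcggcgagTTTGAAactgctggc
Top2a, chr11:99024190-99024289: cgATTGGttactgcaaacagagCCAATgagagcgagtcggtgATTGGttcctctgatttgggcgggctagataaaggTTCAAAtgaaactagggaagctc
Cdc20, chr4:118437344-118437443: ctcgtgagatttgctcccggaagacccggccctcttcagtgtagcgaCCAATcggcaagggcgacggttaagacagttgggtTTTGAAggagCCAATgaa
Ccnb2, chr9:70421555-70421654: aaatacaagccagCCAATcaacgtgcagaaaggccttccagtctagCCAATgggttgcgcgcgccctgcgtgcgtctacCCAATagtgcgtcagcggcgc
In the full window of 250 bases before to 50 after the start, CCAAT occurred for 18 of the 21 cell cycle genes with a promoter in the table (85.7%) and TTTGAA for 10 (47.6%). Over the 11616 genes tested that had a promoter there, the shares were 42.4% and 14.1%. GAAANNGAA, the core of the interferon-stimulated response element, was present for 6 of 10 interferon response genes (60%) against 8.61% of all. GAGGAA, the core bound by the myeloid factor PU.1, occurred for 113 of 264 resolved (42.8%) and 11 of 25 persisted genes (44%) against 30.3% of all. TGACTCA, the AP-1 site, occurred for 16 (6.06%) and 3 (12%) of them against 4.54%. All motifs were searched on both strands, GAGGAA may overlap GAAANNGAA, and a match is a description of the letters only.

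Markers of surveying microglia were higher early and then declined. Of 15 homeostatic microglia genes, 14 were higher at 3 dpi, 0 were called at 29 dpi and 10 resolved, with medians of 0.82 and 0.28. Csf1r, the receptor that keeps microglia alive, was at 103, 99.6, 106 and 108 CPM in Sham + VH and 304, 218, 308 and 244 CPM in TBI + VH at 3 dpi. At 29 dpi it was at 87.7, 94.9, 97.8 and 95.8 CPM in Sham + VH and 121, 116, 128 and 127 CPM in TBI + VH. Both pairs of groups were apart, and the log2 fold change declined from 1.37 ± 0.09 (SE) to 0.39 ± 0.09, with a log2 difference of -0.98 ± 0.12 (FDR 0.000901). In bulk tissue such a value cannot tell more cells of a type from more RNA per cell. Fcrls went from 2.53 to 0.39 and P2ry12, the purinergic receptor of surveying microglia, from 0.75 to 0.00. Mef2c, which neurons also express, had 0.01 and -0.39 with no call; it was at 329 CPM in Sham + VH replicate 3 at 29 dpi against 87.45 to 148 CPM in the other 15 libraries, and the later value was 0.13 without that library.

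Itgam, the CD11b chain of complement receptor 3, had the smallest FDR of the difference. Its CPM values were 20.8, 20.5, 23.2 and 22.9 in Sham + VH and 95.4, 60.9, 84.8 and 85.8 in TBI + VH at 3 dpi. At 29 dpi they were 21.9, 23.3, 30.9 and 23.6 in Sham + VH and 29.1, 29, 28.7 and 26.7 in TBI + VH. The groups overlapped at 29 dpi because of Sham + VH replicate 3. The log2 fold change was 1.91 ± 0.12 (SE) at 3 dpi and 0.17 ± 0.12 at 29 dpi, and the log2 difference of -1.73 ± 0.17 (FDR 0.000203) was called in all alternatives computed. Its neighbour Itgax, the CD11c chain of complement receptor 4, had 2.28 and 4.66, a difference that was not called (FDR 0.117), and is described with the persisted genes. GENCODE places both on chromosome 7 of GRCm38, Itgam at 128062640 to 128118491 and Itgax at 128129547 to 128150657.

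Genes of the disease-associated microglia program, named for phagocytic microglia around plaques and debris, split between the classes. Of 20, 17 were higher at 3 dpi and 5 at 29 dpi; 6 resolved, 5 persisted and 6 were undecided, with medians of 1.99 and 0.80. The 6 resolved members included the receptor Trem2 (2.15 at 3 dpi and 0.80 at 29 dpi) and its adaptor Tyrobp (2.09 and 0.79), and also Axl, Csf1 and the proteases Ctsd (1.61 and 0.34) and Ctsb (0.85 and 0.16). The 5 that persisted were Clec7a, Itgax, Cst7, Gpnmb and Lyz2, and the difference was called for none of these. Apoe, the main lipid carrier of the brain, had 0.32 and 0.36 with no call at either time. Spp1, the secreted osteopontin, was undecided: 3.98 ± 0.55 (SE) at 3 dpi and 1.81 ± 0.53 at 29 dpi, with replicate 2 of TBI + VH at 10 CPM against 61.9 to 106 CPM in the other 3 at 3 dpi. Without that library, 8 members were called at 29 dpi and 10 differences were called.

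Itgax had a larger log2 fold change at 29 than at 3 dpi, unlike the other persisted genes apart from Mmp12, for which only a bound exists at 3 dpi. It was at 0.200, 0.125, 0.246 and 0.512 CPM in Sham + VH and 1.55, 0.559, 1.81 and 1.43 CPM in TBI + VH at 3 dpi. At 29 dpi it was at 0.0976, 0, 0.341 and 0.0974 CPM in Sham + VH and 5.59, 2.72, 5.28 and 5.43 CPM in TBI + VH. The log2 fold change was 2.28 ± 0.45 (SE, FDR 0.0021) at 3 dpi and 4.66 ± 0.48 (FDR 0.000169) at 29 dpi, but the log2 difference of 2.38 ± 0.72 was not called (FDR 0.117). With choroid plexus content as a covariate the order of calls changed: the value at 3 dpi was 1.49 ± 0.56 and not called (FDR 0.128), that at 29 dpi was 4.45 ± 0.44, and the log2 difference of 2.96 ± 0.72 was called (FDR 0.0426). Cst7, an inhibitor of lysosomal cathepsins, was at 3.35, 1.83, 3.62 and 2.24 CPM in TBI + VH at 3 dpi and 1.77, 0.966, 2.16 and 2.19 CPM at 29 dpi, with no Sham + VH library above 0.195 CPM. Its log2 fold changes were 4.60 ± 0.41 and 3.81 ± 0.44. Clec7a, the beta-glucan receptor dectin-1, was at 5.36, 1.42, 6.22 and 3.30 CPM and then 4.46, 3.78, 5.28 and 6.05 CPM in TBI + VH, against at most 0.683 CPM in Sham + VH, with log2 fold changes of 4.27 and 3.32. In all 3 genes the injured and sham groups were apart at both times.

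Lyz2, the myeloid lysozyme, and Gpnmb, a glycoprotein of phagocytes laden with lipid, also stayed high. Lyz2 was at 128, 29.7, 121 and 87.8 CPM in TBI + VH at 3 dpi and 39.6, 27.6, 49.98 and 49.95 CPM at 29 dpi, while Sham + VH ranged from 5.06 to 9.52 CPM over both times. Its log2 fold changes were 3.69 ± 0.36 (SE) and 2.67 ± 0.37, with a log2 difference of -1.02 ± 0.50 that was not called (FDR 0.514). Gpnmb was at 60.3, 18.9, 59.5 and 52.9 CPM and then 20.9, 17.7, 33.3 and 19.9 CPM in TBI + VH, against 3.35 to 6.24 CPM in Sham + VH, with log2 fold changes of 3.30 ± 0.31 and 2.33 ± 0.32. Replicate 2 of TBI + VH was far below the other 3 libraries of its group for both genes, near the 29 dpi level. Lyz2 has a close paralog in Lyz1, and reads shared by them could be split by the counting.

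The lysosomal genes, which digest what phagocytes take up, mostly resolved. Of 16, 15 were higher at 3 dpi and 1 at 29 dpi, and 11 resolved, with medians of 1.16 and 0.24. Ctsd, Ctsb and Lamp1, the members with the largest summed CPM, had log2 differences of -1.28, -0.69 and -0.37, all called. The exception was Ctss, a cathepsin made by microglia and macrophages, which persisted at a lower level (1.75 and 0.76, log2 difference -0.99 ± 0.18).

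**Figure D3:**
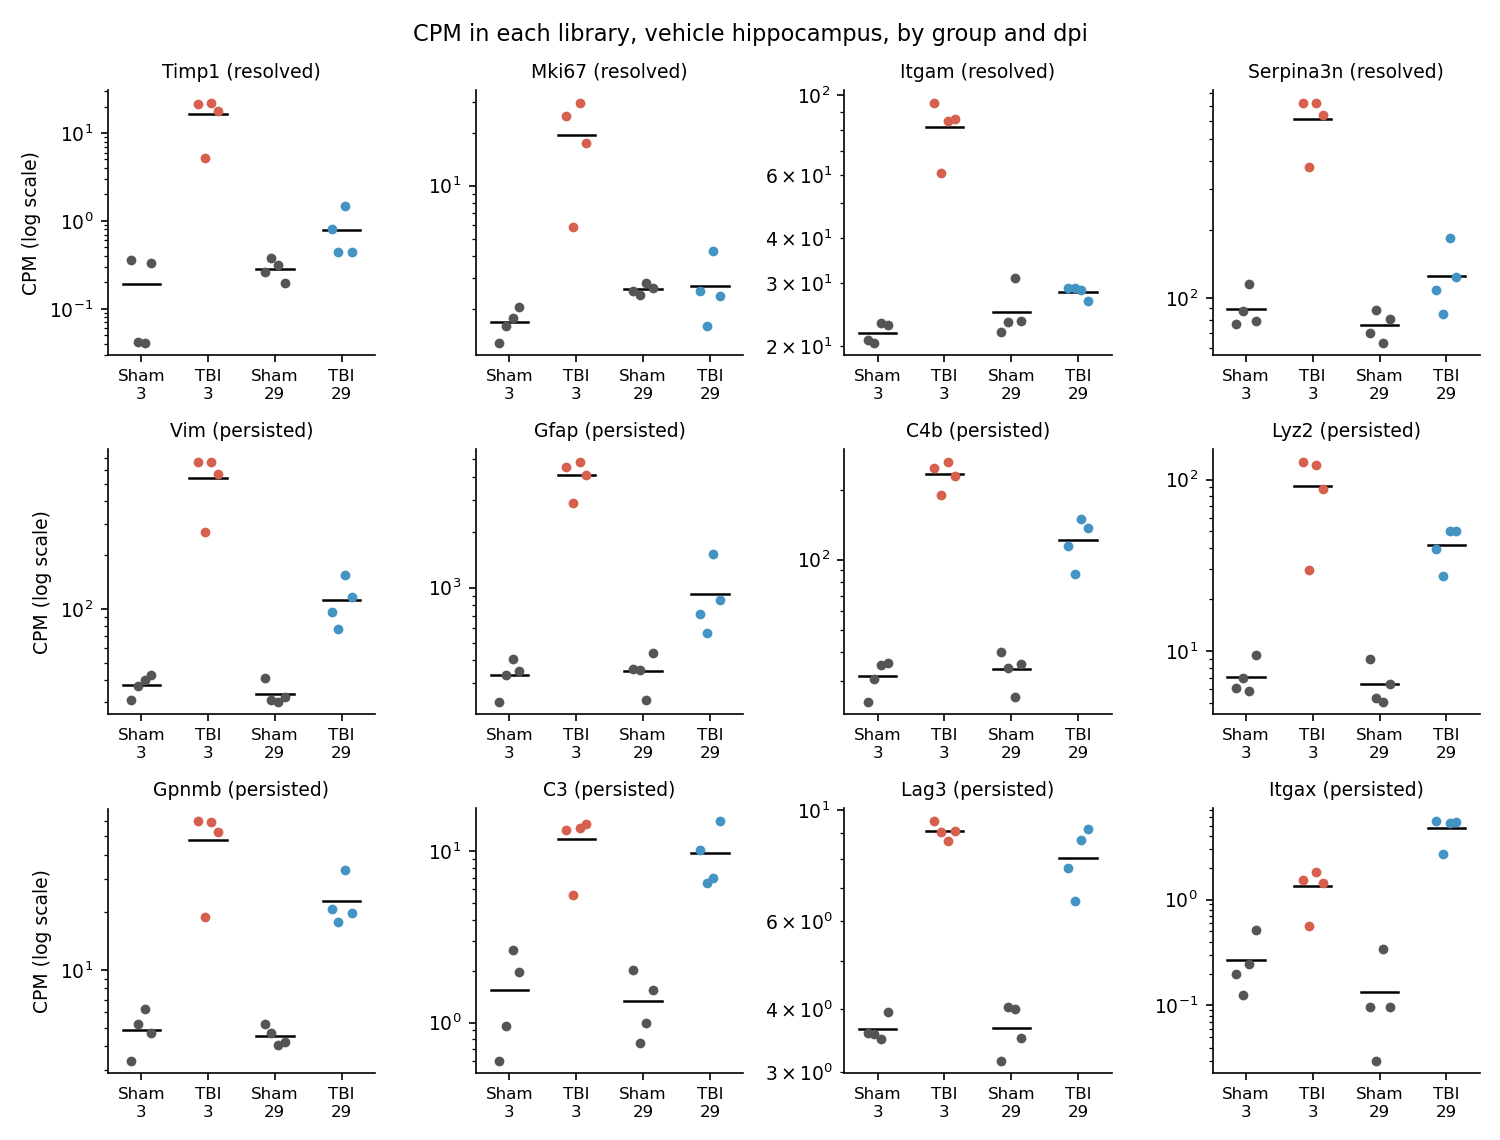
CPM on log axes for 12 genes in each of the 16 libraries, by group and dpi; points are libraries, horizontal lines are group means, and a library at 0 is drawn at 0.03 CPM. The genes run from Timp1, Mki67 and Itgam, whose TBI + VH means at 29 dpi were 0.792, 2.68 and 28.4 CPM against 16.7, 19.5 and 81.7 CPM at 3 dpi, to C3, Lag3 and Itgax, at 9.77, 8.04 and 4.76 CPM against 11.8, 9.09 and 1.34 CPM.

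Complement genes were found in both classes. Of 15 components and receptors tested, 12 were higher at 3 dpi and 3 at 29 dpi, and 8 differences were called, all lower, with medians of 2.2 and 0.71. Without replicate 2 of TBI + VH at 3 dpi, 7 were higher at 29 dpi. The recognition subunits C1qa, C1qb and C1qc resolved, from 2.2, 2.24 and 2.25 to 0.80, 0.73 and 0.71. C1qb was at 252, 138, 244 and 186 CPM in TBI + VH at 3 dpi and at 63.7, 59.2, 80.8 and 82.3 CPM at 29 dpi, where Sham + VH was at 37.5, 51.7, 37.6 and 48.4 CPM and still did not overlap with it. The receptors C3ar1 and C5ar1 resolved as well (3.25 and 1.43, and 2.51 and 0.35). C4b and C3 persisted, and so did Itgb2, the beta chain shared by complement receptors 3 and 4 (2.04 and 0.71, log2 difference -1.33 ± 0.19 called). The 29 dpi calls of C4b and C3 held whichever library was left out and with choroid plexus content as a covariate, while that of Itgb2 was lost without any of 13 of the 16 libraries, at FDRs up to 0.173, and with the covariate (FDR 0.0917).

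C4b, which carries the classical cascade to C3, had the smallest FDR at both times. It was at 24.5, 30.8, 35.3 and 35.8 CPM in Sham + VH and 249, 190, 264 and 228 CPM in TBI + VH at 3 dpi. At 29 dpi it was at 40.3, 34.2, 25.7 and 35.6 CPM in Sham + VH and 114, 86.7, 150 and 137 CPM in TBI + VH. The log2 fold changes were 2.88 ± 0.17 (SE, FDR 3.67e-08) and 1.85 ± 0.17 (FDR 6.66e-05), with a called log2 difference of -1.03 ± 0.23 (FDR 0.0274). C3, the hub of the cascade, was at 13.4, 5.54, 13.7 and 14.4 CPM in TBI + VH at 3 dpi and 10.3, 6.59, 7.03 and 15.2 CPM at 29 dpi, against 0.599 to 2.67 CPM in Sham + VH. Its log2 fold changes were 2.93 ± 0.40 and 2.83 ± 0.43, and the log2 difference was -0.09 ± 0.59 (FDR 0.989), an SE that leaves room for a change in either direction. C4b (chromosome 17, 34728380 to 34743882) has the near-identical neighbour C4a, so its counts may hold reads of both.

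Most chemokine, cytokine and Toll-like receptor genes tested were higher at 3 dpi, and 0 were called at 29 dpi. Of 9 chemokines and cytokines that passed the filter on low counts, from 21 listed, 7 were higher at 3 dpi, against 5 with the covariate, and 4 resolved, among them Ccl9, Ccl12 and Cxcl16. The 12 that did not pass include Il1b, Il6, Tnf and Ccl2. Tgfb1, an anti-inflammatory cytokine, had 1.39 and 0.63, while Cxcl12 (-0.24 and -0.16) and Cxcr4 (0.50 and 0.50) were not called. Of 11 Toll-like receptor genes, 9 were higher at 3 dpi and only Tlr13 resolved, so 8 were undecided, and with choroid plexus content as a covariate 0 differences were called. Without replicate 2 of TBI + VH at 3 dpi, 3 differences and 1 gene at 29 dpi were called. Tlr7 had 1.98 and 0.88, the adaptor Myd88 0.54 and 0.19, and Tlr3 0.23 and 0.11 with no call. Socs3, the feedback inhibitor of cytokine signalling and no member of these lists, was at 14.5, 6.66, 16.02 and 9.06 CPM in TBI + VH at 3 dpi and 1.68, 2.72, 2.30 and 2.15 CPM at 29 dpi, with a log2 difference of -2.88 ± 0.42 (FDR 0.00206).

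Antigen presentation and interferon genes declined in point estimate, but most could not be separated between the times. All 11 MHC class I genes were higher at 3 dpi, 0 were called at 29 dpi and 2 resolved, with medians of 1.23 and 0.41. The resolved ones were B2m, the common light chain (1.06 and 0.34), and the immunoproteasome subunit Psmb8 (1.84 and 0.41). Without replicate 2 of TBI + VH at 3 dpi, 2 of the 11 were higher at 29 dpi and 4 differences were called. H2-D1 had 1.44 and 0.72 and the peptide loader Tapbp 0.52 and 0.28. Of 7 MHC class II genes, 5 were higher at 3 dpi and only Ctss at 29 dpi; Cd74, the invariant chain, had 1.51 and 1.02, and H2-DMa 0.23 and 0.10. Of 15 type I interferon response genes, 12 were higher at 3 dpi, 0 at 29 dpi, and 1 resolved, the antiviral membrane protein Ifitm3 (1.63 and 0.65). Irf9, which carries the interferon signal to the nucleus, had 0.64 and 0.23.

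Markers of cells that enter from the blood were mostly too low to test. Of 10 tested genes of infiltrating and border macrophages, 7 were higher at 3 dpi and 0 at 29 dpi, with medians of 0.87 and 0.50. Their summed level was 23.9 to 32.8 CPM in Sham + VH and 38.9 to 62.7 CPM in TBI + VH at 3 dpi, and 27.5 to 34.2 CPM and 33.3 to 40.3 CPM at 29 dpi. Ccr2, the receptor of incoming monocytes, was at 1.47, 0.661, 1.19 and 0.807 CPM in TBI + VH at 3 dpi and 0.168, 0.527, 0.338 and 0.236 CPM at 29 dpi, where Sham + VH was at 0.126 to 0.553 CPM; it resolved. Vcan, Mrc1 and F13a1 had 0.68 and 0.09, 0.73 and 0.28, and 0.87 and 0.35, undecided in each case. The neutrophil list had 1 member that passed the filter, Csf3r (1.87 and 0.72, resolved), which microglia also express; S100a8 and S100a9 did not pass. What part such cells had in the microglial values, whose genes they share, was not tested. Of the T and natural killer cell list 3 of 14 passed and 1, Itgal, was called at 3 dpi (1.76 and 0.66), against 0 with choroid plexus content as a covariate. Lck had -0.03 and 0.04 and Cd4 0.31 and -1.0. Of the B and plasma cell list 2 passed, Cd79b (2.53 and 0.87, called at 3 dpi) and Igj (0.02 and -0.03). The red blood cell genes Hba-a2, Hbb-bs and Hbb-b2 had -0.59 and 0.18, -0.67 and -0.16, and -0.95 and -0.78, with 0 of 4 called.

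Reactive astrocyte genes held the highest list median at both times among lists with at least 5 members tested. Of 12 general markers, 9 were higher at 3 dpi and 4 at 29 dpi, with medians of 2.75 and 1.17; Gfap, Vim, Osmr and Aspg persisted and Serpina3n, S1pr3, Timp1 and Cd44 resolved. Gfap, the intermediate filament that defines the reactive astrocyte, went from 332.3 ± 69.6 (SD, n = 4) to 4103 ± 869.8 CPM at 3 dpi and from 348.2 ± 79.6 to 917 ± 425.3 CPM at 29 dpi. The log2 fold change of Gfap was 3.63 ± 0.28 (SE) and then 1.40 ± 0.26, with a called log2 difference of -2.23 ± 0.36 (FDR 0.00367). Vim, another intermediate filament, was at 670, 268, 662 and 567 CPM in TBI + VH at 3 dpi and 96.2, 77.5, 156 and 117 CPM at 29 dpi, while all Sham + VH libraries lay between 30.1 and 42.5 CPM. Its log2 fold changes were 3.85 ± 0.26 and 1.73 ± 0.25, with a log2 difference of -2.12 ± 0.34 (FDR 0.0034). The 29 dpi call of Vim held whichever library was left out and with choroid plexus content as a covariate. That of Gfap was lost without any of 9 of the 16 libraries, at FDRs up to 0.153, and with the covariate (1.24, FDR 0.0882).

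Serpina3n, a secreted protease inhibitor, was at 723, 378, 717 and 638 CPM in TBI + VH at 3 dpi and 108, 85.4, 184 and 124 CPM at 29 dpi, where Sham + VH at 63.6 to 89.0 CPM overlapped with it. It went from 2.77 to 0.74. Timp1, the inhibitor of matrix metalloproteases, had the largest log2 fold change among resolved genes at a mean of 1 CPM or more. It was at 0.359, 0.0416, 0.041 and 0.329 CPM in Sham + VH and 21.4, 5.24, 22.2 and 17.8 CPM in TBI + VH at 3 dpi, and at 0.260, 0.378, 0.315 and 0.195 CPM and 0.799, 0.439, 1.49 and 0.443 CPM at 29 dpi. The log2 fold change was 6.36 ± 0.53 (SE) at 3 dpi and 1.39 ± 0.68 at 29 dpi, with a log2 difference of -4.98 ± 0.99 (FDR 0.0124). That difference was not called without Sham + VH replicate 3 at 29 dpi (FDR 0.0836), with choroid plexus content as a covariate (FDR 0.0539) or after thinning all libraries to the smallest (FDR 0.101). Lcn2, an iron-binding secreted protein of reactive astrocytes, was high in 2 of 4 TBI + VH libraries at 29 dpi, with 0.379, 2.46, 0.203 and 2.66 CPM after 29.8, 11.5, 39.2 and 24.7 CPM at 3 dpi, and was undecided.

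The inflammation and ischemia sets of reactive astrocyte genes had medians of 1.21 and 0.43, and 1.37 and 0.61. In the inflammation set 7 of 10 were higher at 3 dpi and 1 at 29 dpi, Ggta1 (2.38 and 1.2), while Fkbp5 (0.01 and 0.07) and Amigo2 (-0.16 and -0.22) were not called. In the ischemia set 9 of 11 were higher at 3 dpi and 1 at 29 dpi. That one was Tgm1, a transglutaminase that cross-links proteins, at 70.8, 18, 88.8 and 50.9 CPM in TBI + VH at 3 dpi and 1.39, 0.878, 5.21 and 2.21 CPM at 29 dpi, against at most 0.183 CPM in Sham + VH. Its log2 fold changes were 9.10 ± 0.65 (SE) and 5.01 ± 0.97 (FDR 0.0436), and the call at 29 dpi was lost on leaving out any of 11 of the 16 libraries, at FDRs up to 0.208, and with choroid plexus content as a covariate (FDR 0.0747). The log2 difference of Tgm1 was -4.09 and not called (FDR 0.619). S100a10 resolved (1.37 and 0.41), and Ptgs2 had -0.34 and -0.14. Genes of astrocyte homeostasis also rose early: 9 of 13 at 3 dpi, 0 at 29 dpi and 4 resolved, which were the water channel Aqp4 (1.45 and 0.42), Gja1, Aldh1l1 and Atp1b2. The glutamate transporters Slc1a2 and Slc1a3 had 0.08 and 0.18, and 0.39 and 0.17, and glutamine synthetase Glul 0.03 and -0.01.

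Counts of these lists moved with the doubtful libraries as follows. Without replicate 2 of TBI + VH at 3 dpi, the genes called at 29 dpi were 1 homeostatic microglial, 7 complement, 3 lysosomal and 6 general reactive astrocyte genes, and their called differences 11, 8, 13 and 8. With choroid plexus content as a covariate, 5 disease-associated microglia, 2 complement, 1 lysosomal and 1 general reactive astrocyte gene were called at 29 dpi. The differences called were then 8 for the cell cycle, 8 homeostatic microglial, 4 disease-associated microglial, 7 complement, 10 lysosomal and 4 general reactive astrocyte genes, all lower at 29 dpi, beside the higher one of Itgax.

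**Figure D4:**
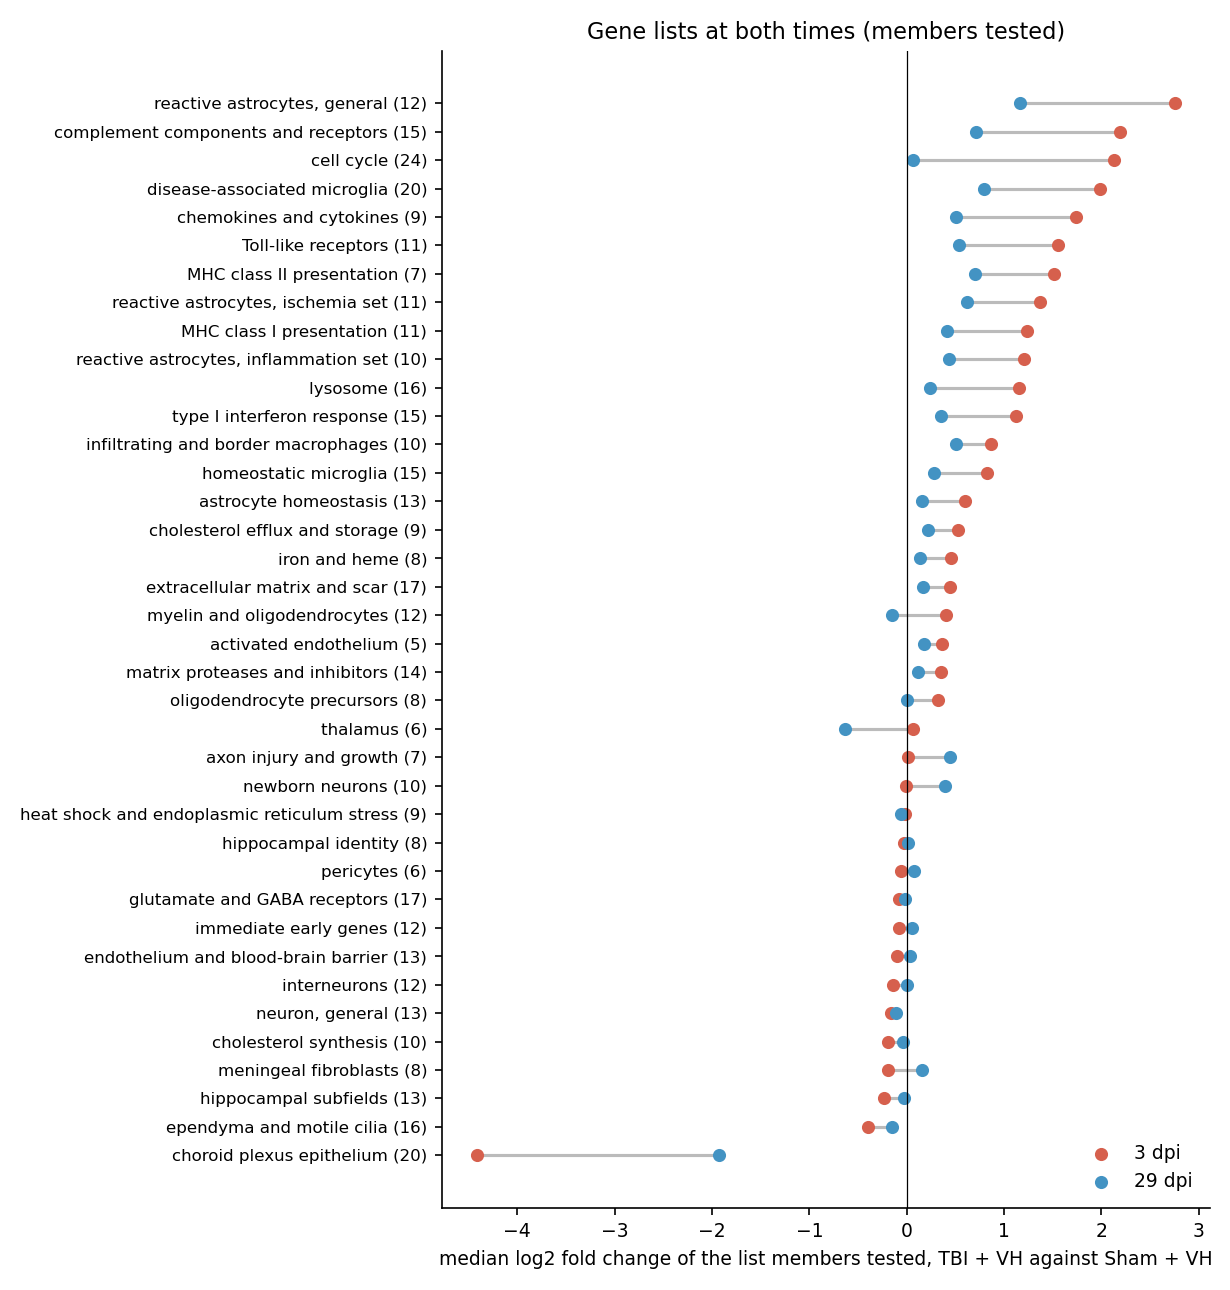
Median log2 fold change of TBI + VH against Sham + VH at 3 dpi and at 29 dpi for each gene list with at least 5 members tested, ordered by the 3 dpi median, with the number tested in brackets. The cell cycle median fell from 2.13 to 0.07, the general reactive astrocyte median from 2.75 to 1.17, the general neuronal median was -0.17 and -0.11, and the choroid plexus list was at -4.42 and -1.93.

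The remaining persisted genes included receptors and enzymes of myeloid cells. All 30 persisted genes were, by their selection, higher at both times; 12 had a called decline and 18 had no called difference, with medians of 2.76 and 1.24, and 3.22 and 2.53. Those with a called decline, beside those given above, were Mpeg1 (2.65 and 1.04), Myo1f (2.30 and 0.96), the inhibitory Fc receptor Fcgr2b (3.11 and 1.43), S100a6 (2.93 and 1.28), P4ha3, a collagen prolyl hydroxylase (2.27 and 1.2), and Aspg (3.13 and 1.29). Without a called difference were Lag3, an inhibitory MHC class II receptor (1.31 and 1.14), the NADPH oxidase subunit Cybb (2.64 and 2.44), the sialic acid receptors Siglec1 (3.13 and 2.37) and Cd22 (3.55 and 2.63), Ly9 (4.81 and 3.18), Thbs4 (2.27 and 1.51), Osmr (2.16 and 1.24), Capg (2.34 and 1.39), Flnc (2.64 and 1.52) and S100a4 (3.9 and 2.01). Lag3 was among the most even: 9.54, 9.05, 8.68 and 9.10 CPM in TBI + VH at 3 dpi and 7.66, 6.59, 8.72 and 9.18 CPM at 29 dpi, against 3.16 to 4.03 CPM in Sham + VH. Ly9, a receptor of the SLAM family, was at 3.22, 1.27, 3.40 and 2.60 CPM and then 1.94, 0.703, 1.56 and 1.92 CPM, against at most 0.252 CPM. Mmp12, the macrophage elastase, had 0 counts in the Sham + VH libraries at 3 dpi and 29 counts in TBI + VH, at least 9.89-fold higher against a floor of 3 counts over the group. At 29 dpi it had 2 against 49 counts, a ratio of 25.4 (95% counting interval 6.68 to 216). With choroid plexus content as a covariate 18 of the 30 genes stayed persisted, and 11 lost their call at 29 dpi. Of the 30 genes, 12 stayed persisted whichever library was left out: C3, C4b, Clec7a, Cst7, Gpnmb, Itgax, Lag3, Ly9, Lyz2, P4ha3, Thbs4 and Vim.

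No gene met the definition of emerged, but 2 genes were called at 29 dpi and not at 3 dpi. Atp6v0d2, a subunit of the lysosomal proton pump of osteoclasts and macrophages, was at 0, 0, 0.0525 and 0 CPM in Sham + VH and 0.841, 0.790, 0.811 and 0.797 CPM in TBI + VH at 29 dpi. At 3 dpi it was at 0, 0, 0.041 and 0 CPM in Sham + VH and 0.0837, 0, 0.0723 and 0.110 CPM in TBI + VH. At 29 dpi there were 2 counts in Sham + VH and 68 in TBI + VH, a ratio of 35.3 (95% counting interval 9.41 to 297), and at 3 dpi 1 and 7, a ratio of 7.16 (0.92 to 323). Wisp2, a secreted protein of connective tissue, was at 0.228, 0.126, 0.262 and 0.195 CPM in Sham + VH and 0.925, 0.966, 1.42 and 1.68 CPM in TBI + VH at 29 dpi, while the groups overlapped at 3 dpi. Its log2 fold change was 0.69 ± 0.39 (SE) at 3 dpi and 2.48 ± 0.40 (FDR 0.00968) at 29 dpi. The differences of the 2 genes were not called, at FDRs of 0.827 and 0.143, so a late onset was not established for either. The call of Wisp2 at 29 dpi was lost without Sham + VH replicate 1 or TBI + VH replicate 4 of that time, at FDRs up to 0.0794.

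Among resolved genes that averaged 1 CPM or more and whose groups were apart at 3 dpi, those with the largest log2 fold change there, beside Timp1 and Pbk, were H19, Klk6, Cd52 and Tubb6. H19, an imprinted long non-coding RNA of growing tissue (chromosome 7, 142575529 to 142578143), was at 11.9, 3.36, 12.4 and 6.68 CPM in TBI + VH at 3 dpi and 0.252, 0.439, 0.609 and 0.384 CPM at 29 dpi, against 0.123 to 0.293 CPM in Sham + VH. Its log2 difference was -4.36 ± 0.76 (SE, FDR 0.00545), and was not called after thinning all libraries to the smallest (FDR 0.0842). Klk6, a secreted serine protease, was at 33.8, 7.47, 26.7 and 23.7 CPM and then 1.89, 1.49, 3.38 and 3.54 CPM in TBI + VH, against 0.239 to 1.27 CPM in Sham + VH. Its log2 fold change of 1.58 ± 0.52 at 29 dpi was not called although the groups did not overlap there. The log2 difference of Klk6, -3.18 ± 0.71 (FDR 0.0255), was not called without any of 5 of the 16 libraries, at FDRs up to 0.166, nor with choroid plexus content as a covariate (FDR 0.114). Cd52, a small surface glycoprotein of leukocytes, was at 12.1, 4.27, 11.0 and 8.47 CPM and then 1.77, 0.966, 2.57 and 2.24 CPM in TBI + VH, with a log2 difference of -2.55 ± 0.51 (FDR 0.0124) that was likewise lost on thinning (FDR 0.0928). Tubb6, a beta-tubulin, went from 3.94 to 1.2, and its log2 difference of -2.74 ± 0.66 (FDR 0.0363) was lost on leaving out any of 12 of the 16 libraries, at FDRs up to 0.112, and with the choroid plexus covariate (FDR 0.129). In each of these 4 genes replicate 2 was the lowest TBI + VH library at 3 dpi.

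Matrix, vessel and lipid genes showed fewer calls. Of 17 extracellular matrix genes, 3 were higher at 3 dpi, 1 was lower and 0 were called at 29 dpi, against 5 higher and 0 lower at 3 dpi without replicate 2 of TBI + VH of that time; Lgals1, a galectin, resolved (2.45 and 0.35), Sparc had 0.52 and 0.14, and the basement membrane collagens Col4a1 and Col4a2 had -0.18 and 0.04, and -0.18 and -0.04. Of 14 matrix proteases and inhibitors, 6 were higher at 3 dpi and 1, Mmp12, at 29 dpi, while Timp2 (-0.05 and 0.13), Timp3 (-0.21 and 0.03) and Adamts1 (0.00 and -0.33) were not called. Endothelial genes had 1 call in 13 at 3 dpi and 0 at 29 dpi, with Slc2a1 at -0.01 and 0.10, Ly6c1 at 0.18 and 0.02 and Flt1 at -0.37 and 0.03. Of 5 genes of activated endothelium, 2 were higher at 3 dpi; Icam1, the adhesion molecule for leukocytes, had 1.73 and 1.01, Vcam1 0.37 and 0.17 and Plvap 0.33 and -0.10. Pericyte genes had 0 calls, with Vtn at -0.23 and 0.24, Pdgfrb at 0.05 and 0.16 and Rgs5 at -0.30 and -0.01. Among 8 iron and heme genes 4 were higher at 3 dpi; Hmox1, which breaks down heme (2.17 and 0.47), and the ferritin light chain Ftl1 (0.90 and 0.21) resolved, Fth1 had 0.34 and -0.06 and Tfrc -0.12 and -0.25. Among 9 cholesterol efflux and storage genes 5 were higher at 3 dpi, with Abca1, the lipid exporter (1.18 and 0.48), resolved and Abcg1 at 0.11 and 0.06. Of 10 cholesterol synthesis genes 1 was lower at 3 dpi; Hmgcs1 had -0.18 and -0.12.

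In the oligodendrocyte lineage calls were few and at 3 dpi only. Of 8 precursor genes, 3 were higher at 3 dpi and 3 differences were called, against 1 with choroid plexus content as a covariate. Gpr17, the receptor of precursors about to mature, was at 168, 156, 206 and 170 CPM in TBI + VH and 56.7 to 79.2 CPM in Sham + VH at 3 dpi, and at 87.8, 67.2, 56.6 and 56.2 CPM against 52.6 to 68.6 CPM at 29 dpi. Its log2 fold change went from 1.32 ± 0.14 (SE) to 0.10 ± 0.14, and Olig1 went from 0.57 to -0.14, while Pdgfra had 0.05 and 0.06. Of 12 myelin genes 2 were higher at 3 dpi and 0 were called at 29 dpi. With choroid plexus content as a covariate 0 were called at 3 dpi and the median there was 0.18. Their summed level at 3 dpi was 3235 CPM in Sham + VH replicate 1, 5644 to 8105 CPM in the other Sham + VH libraries and 6723 to 8240 CPM in TBI + VH. All 12 had a positive value at 3 dpi and a negative one at 29 dpi, with medians of 0.40 and -0.15 and 0 differences called; Mbp had 0.36 and -0.11 and Mobp 0.33 and -0.15.

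Neuronal genes had few calls, which does not show that they stayed the same. Of 13 general neuronal, 17 receptor and 12 interneuron genes, 0 were called in any contrast, with medians of -0.17 and -0.11, -0.08 and -0.02, and -0.14 and 0.00. All 13 general neuronal genes had a negative value at 3 dpi, and 2 of them were called lower there with choroid plexus content as a covariate. Camk2a, a kinase of excitatory neurons, had -0.20 and -0.04, Snap25 -0.21 and -0.17 and Syt1 -0.15 and -0.14. The glutamate receptor genes Gria1, Gria2 and Grin1 had -0.15 and 0.11, -0.09 and -0.02, and -0.06 and -0.01, and Gad1, Cck and Cnr1 had -0.20 and 0.01, 0.14 and -0.20, and -0.14 and -0.02. Among 13 markers of hippocampal subfields, Wfs1 of CA1 was higher at 3 dpi (0.43 and 0.30) and Tdo2 of the dentate gyrus lower (-0.86 and -0.14), while Fibcd1 and Mpped1 (-0.06 and 0.08) were not called. Of 10 newborn neuron genes 0 were called and 8 had positive values at 29 dpi, with medians of 0.00 and 0.40; Dcx had -0.11 and -0.19, Neurod1 -0.23 and -0.01 and Calb2 -0.49 and 0.07. Of 7 axon injury and growth genes 1, Atf3, was higher at 3 dpi (2.40 and 0.89), while Gap43, Jun and Sox11 had -0.03 and 0.09, 0.01 and 0.01, and -0.01 and 0.45. Immediate early and stress genes had 0 calls, with Arc, Egr1 and Nr4a1 at 0.01 and 0.48, -0.03 and -0.04, and -0.14 and 0.11, and Hspa8, Hspa5 and Atf4 at -0.07 and -0.02, -0.02 and -0.21, and -0.05 and 0.05. The regional markers Prkcd, Slc17a6 and Zic1 of thalamus had 0.40 and -0.86, 0.29 and 0.02, and -0.27 and -0.39, and Tbr1, Fezf2 and Cux2 of neocortex -0.08 and -0.32, 0.02 and 0.23, and -0.05 and -0.53, with no call.

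Genes of the choroid plexus were among those lower at 3 dpi. Of the 157, 18 were among the 20 choroid plexus genes, whose medians were -4.42 and -1.93 with 0 differences called. Ttr, the thyroxine carrier made by that epithelium, was at 153 CPM in replicate 3 and 3857 to 6125 CPM in the other Sham + VH libraries at 3 dpi, against 4.35 to 130 CPM in TBI + VH. Clic6 and Kl had -4.24 and -1.86, and -2.88 and -1.25. At 3 dpi choroid plexus content and injury nearly coincide, so their parts in the other lower genes cannot be told apart. With the content as a covariate, a score over the same 20 genes, 66 genes were lower at 3 dpi, largely different ones: 12 undecided genes and Ogn kept their class. Genes of ependyma and motile cilia had 1 call in 16, Rarres2 (0.59 and 0.27), and 0 without replicate 2 of TBI + VH at 3 dpi or with the covariate, with Foxj1 at -0.13 and 0.18 and Cfap44 at -0.53 and -0.23. Ogn, osteoglycin of the meninges, was the sole gene that was lower at 3 dpi and resolved. It was at 10.1, 10.1, 10.2 and 11.97 CPM in Sham + VH and 3.98, 2.03, 2.60 and 3.67 CPM in TBI + VH at 3 dpi, and at 20.5, 5.17, 7.21 and 11.7 CPM and 16.2, 10.2, 10.8 and 10.9 CPM at 29 dpi. The TBI + VH libraries lay below all Sham + VH libraries at 3 dpi, as in 4.77% of all genes, and overlapped with them at 29 dpi, where 1.13% of all genes had such an order. The log2 difference of 1.85 ± 0.44 (SE, FDR 0.0325) was not called without any of 8 of the 16 libraries, at FDRs up to 0.0944. Of the 8 meningeal genes 1 other was lower at 3 dpi, Igf2, which choroid plexus also makes (-2.56 and -0.67), while Dcn had -0.16 and 0.20 and Slc6a13 -0.23 and 0.54 with no call. Tspyl3 was the other gene with a higher response at 29 dpi, from -0.21 to 0.18, below the threshold at each time.

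The same contrasts in the 16 hippocampal candesartan libraries, none of which was used to sort the genes, gave 2462 genes higher (14.3%) and 885 lower (5.15%) at 3 dpi, 47 higher (0.274%) and 1 lower (0.00582%) at 29 dpi. The difference was lower for 1089 (6.34%) and higher for 84 (0.489%) of 17181 genes. Of the 354 resolved genes, 347 were higher at 3 dpi, 2 at 29 dpi, and 322 had a called lower difference, with medians of 1.64 and 0.21. Ogn was again the 1 with a called higher difference. Of the 30 persisted genes, 30 were higher at 3 dpi and 18 at 29 dpi, with medians of 3.16 and 1.19 against 2.93 and 1.63 in the vehicle libraries, there with Mmp12 at its lower bound. Calls in the vehicle libraries had selected these genes, which raises the vehicle medians, so the 2 sets do not compare on equal terms. Their difference was called lower for 20, among them 8 of the 18 for which it was not called under vehicle. The candesartan calls came from a fit of all 32 hippocampal libraries. That fit also called more differences under vehicle, 543 against the 370 of the 16-library fit that sorted the genes. Itgax had 2.90 and 3.19 there, C3 3.18 and 2.95 and Lag3 1.5 and 0.68. Atp6v0d2 was called at 29 dpi under candesartan as well (FDR 0.00175) and Wisp2 was not (FDR 0.146). Most genes lower at 3 dpi in the vehicle libraries were not called there, with 28 of 157 lower and a median of 0.36. The test of the 2 differences against each other called 0 genes (edgeR), with 638 at an unadjusted p under 0.05.

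**Figure D5:**
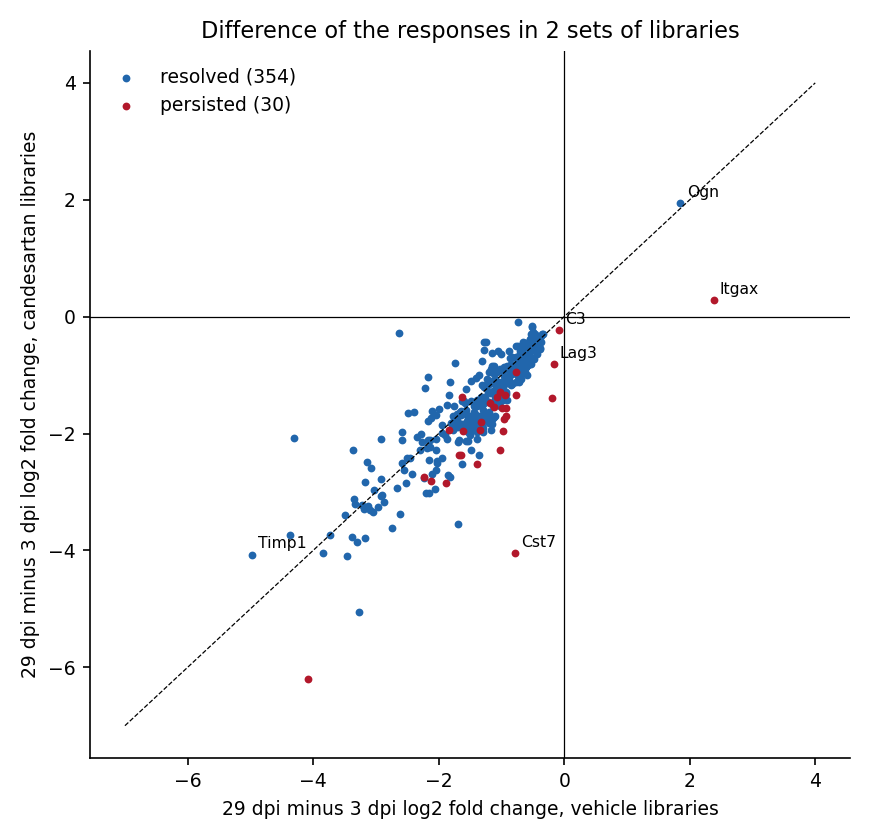
The 29 minus 3 dpi difference of log2 fold changes for the 354 resolved and 30 persisted genes, in the vehicle libraries that sorted them (horizontal) and in the candesartan libraries (vertical); the dashed line marks equal values. In the candesartan libraries 353 of 354 resolved and 29 of 30 persisted genes had a negative value, and Itgax lay at 2.38 and 0.29.

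In the thalamus of vehicle mice 45 genes were higher at 3 dpi (0.257%) and 3 at 29 dpi (0.0171%), and the difference was called for 0 of 17500 genes (0%, edgeR), with 299 at an unadjusted p under 0.05. Of the 354 resolved genes 35 were higher at 3 dpi there, with medians of 0.30 and 0.09, and of the 30 persisted genes 5 were higher at 3 dpi and 3 at 29 dpi. The decline was larger in the hippocampus than in the thalamus for 5 genes by the test of the regional difference, all of them resolved genes, and 961 genes had an unadjusted p under 0.05. That test treated the libraries of both regions as independent, although they may come from the same mice, which the labels do not tell.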

How the data were processed

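Messenger RNA was sequenced from a stranded library of each sample. The authors deposited gene counts per library, made with HTSeq 0.9.1 according to the submitters' processing notes; the annotation, the use of strand in counting and the treatment of multi-mapped reads are not given in the sources used here. Library totals ran from 8159341 to 38589791, and 0 columns were unmapped. No pair of replicates was identical. The labels do not say that each library is a separate mouse, so p-values measure the spread between these samples.

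Counts of the 16 libraries were filtered (filterByExpr), scaled by TMM and fitted as 4 groups with edgeR 4.0.16 (R 4.3.3, limma 3.58.1) by the quasi-likelihood F test, 1 estimate of spread serving all contrasts. Each SE is the log2 fold change divided by the square root of its F, so for genes near 0 counts the SEs of both times do not combine to that of the difference. Benjamini-Hochberg FDRs cover all 16758 genes. DESeq2 1.42.0 was an alternative. The candesartan libraries were fitted together with the vehicle libraries, and so were those of the thalamus. CPM refer to the TMM-scaled library. In simulated data with 16618 genes, the difference was found for 22.9%, 58.3% and 100% of genes changed by 0.5, 1 and 2 on the log2 scale, and 1 unchanged gene was called. The changed genes averaged 1 CPM or more, and counts were drawn independently for each gene. These shares therefore do not carry over to genes with lower counts or to effects shared across a library.

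The members, the gene lists and the tests were chosen with earlier results of these data known. Genes named by rule were the 6 of each class with the largest change, provided that they averaged 1 CPM or more and kept injured and sham libraries apart (a class of 5 or fewer in full), the 3 members of each of 43 lists with the largest summed CPM, the 4 genes that the study also measured by another method (Vim, Lyz2, Gpnmb and C4b) and the gene with the smallest FDR in each contrast. Other genes named were chosen after their values were seen. Some genes that the rule names are not reported here. Positions are from GENCODE vM21 on GRCm38 and promoters from RefSeq on GRCm38.p6. Counting intervals and floors (3 counts) cover counting error only.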

Additional observations from a re-analysis of the deposited data

Results flagged for a closer look

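In 88 checks of a gene or score within a group of 4 libraries, 9 had a single library far from the other 3, measured by its gap against the range of the group. Chance gives about 1 in 20 for independent normal values. These checks share libraries and some rest on counts near 0, so the 9 are no measure of an excess. C3 was lowest in TBI + VH replicate 2 at 3 dpi, at 5.54 CPM, the library with the smallest response. Itgax was lowest in TBI + VH replicate 2 at 29 dpi (2.72 CPM), and Itgam in TBI + VH replicate 4 at 29 dpi (26.7 CPM). Ogn was highest in Sham + VH replicate 4 at 3 dpi (11.97 CPM) and in TBI + VH replicate 1 at 29 dpi (16.2 CPM). Vim was highest in Sham + VH replicate 1 at 29 dpi (40.7 CPM). Atp6v0d2 was above 0 in a single Sham + VH library at each time, replicate 3, at 0.041 CPM at 3 dpi and 0.0525 CPM at 29 dpi. With the other 3 at 0 the gap equals the range, so such a flag was fixed by the low counts. The choroid plexus score, a mean log2 CPM, was lowest in Sham + VH replicate 3 at 3 dpi, at 1.28.

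The injury response differed between the times by the test of the difference for 10 of the genes followed through the alternatives. The log2 difference, 29 minus 3 dpi, was -4.98 for Timp1, -4.36 for H19, -3.45 for Pbk, -3.18 for Klk6, -2.74 for Tubb6, -2.55 for Cd52, -2.12 for Vim, -1.73 for Itgam, -1.03 for C4b and 1.85 for Ogn.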

How the results depend on the processing

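At 3 dpi 1548 genes were called, 771 with an absolute log2 fold change above 1, and 1124 to 1683 when 1 library was left out. At 29 dpi the 32 calls became 94 with DESeq2, 49 without the filter on low counts, 77 with all 32 hippocampal libraries in the fit, and 13 to 80 on leaving out a library. With the time points fitted apart, 42 genes were called at 29 dpi, and 26 of the 32 were among them. The 370 differences became 239 above 1, 172 after thinning all libraries to the smallest, and 188 to 656. Resolved genes (354) numbered 222, 162, and 174 to 581 in the same settings, with 146 kept in all 16 leave-one-out fits. With choroid plexus content as a covariate 283 genes resolved, of which 223 were among the 354. Persisted genes (30) numbered 83 with DESeq2, 47 without the filter, 67 with 32 libraries, and 12 to 76. Emerged genes (0) numbered 2 with 32 libraries (Lzts1 and Snord96a), 1 with choroid plexus content as a covariate (Itgax), and 0 to 1. The cause was not tested. The upper ends of the ranges for 29 dpi, the difference and both classes came without TBI + VH replicate 2 at 3 dpi.

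Replicate numbers did not pair the samples: same-numbered Sham + VH and TBI + VH libraries had correlations of -0.083 to 0.126 at 3 dpi and -0.222 to 0.23 at 29 dpi. With the replicate number as a block, 21 genes were called at 29 dpi, 242 for the difference, 232 resolved and 19 persisted.

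For the 20 genes followed, 48 of 320 values lost their call on leaving out a library and 15 of 190 under other alternatives, and 0 reversed. Some list medians changed sign with choroid plexus content as a covariate: at 3 dpi for ependyma (-0.39 to 0.18), endothelium (-0.10 to 0.23), meningeal fibroblasts (-0.19 to 0.10), pericytes (-0.06 to 0.07) and thalamus (0.06 to -0.12), and at 29 dpi for ependyma (-0.15 to 0.04) and the cell cycle (0.07 to -0.05). Small differences were often missed: at a log2 difference of 0.5 the simulation found 22.9%.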
